A study of Mus musculus with 4 samples.

Results

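A total of 1255 splice junctions were read in every library of this mouse liver series without matching any intron of the transcripts that the authors quantified. A splice junction is the join left in a read when an intron has been removed, and each is given here as the intron between its 2 ends. Members were taken by rule: listed in all 4 junction files, at least 5 reads in each, and no annotated intron within 1 base at both ends. They made up 1.75% of the 71764 junctions with 5 reads in each library, of which 70509 were annotated, and 1.56% of the 80675 unannotated junctions listed in any library. The members were selected on these read counts, so their number and level are descriptions. Just inside the limit, 191 members had exactly 5 reads in their weakest library, with a median mean of 8.5 reads. Just outside, 325 unannotated junctions had exactly 4, with a median mean of 6.75 reads.

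The 4 libraries were polyA RNA from liver of C57/BL6 mice, 1 library for each of CT22, CT28, CT34 and CT40, where CT is circadian time in hours. All groups shared 1 genotype, which carries Clock-delta-19, Scg2:tTA and the responder tetO::Clock-HA, and all drank doxycycline at 30 ug/ml from 3 days before constant darkness. The earlier light schedule was 12 h on and 12 h off, and the RNA of 3 animals was pooled for each library. The Scg2 promoter drives the transactivator that doxycycline switches off, and no group without the mutation or without doxycycline is compared here. With 1 library per time there is no replicate check and no test, and all intervals below cover counting error only. Age and sex are not given in the labels.

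Introns are removed between a donor site at their 5′ end, which nearly always begins with the bases GT, and an acceptor site at their 3′ end, which ends with AG. A transcript can differ from its annotated form by skipping a whole exon, by using a donor or acceptor a few bases away, or by taking in an exon that the annotation lacks. A change in exon length that is no multiple of the codon length shifts the reading frame, and many such transcripts are degraded by nonsense-mediated decay. In liver the insulin receptor, the transcription factor HNF4A and many plasma proteins are known to be made from more than 1 splice form.

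The sequences below show the kinds of junction the results turn on. They were read from GENCODE M21 transcripts, a mouse annotation on GRCm38, through introns of matching length and spacing, while all coordinates are mm9, as in the deposited files. Each runs 5′ to 3′ along the transcript. The first set holds acceptors 3 bases from an annotated one. The capitals mark the 3 bases that the longer form keeps and the shorter form loses, with the flanking exon bases in lower case.
Rarres2: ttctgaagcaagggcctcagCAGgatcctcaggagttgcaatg
Tle5: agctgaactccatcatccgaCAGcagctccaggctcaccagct
Mlxipl: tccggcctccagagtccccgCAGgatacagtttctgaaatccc
Pcbp2: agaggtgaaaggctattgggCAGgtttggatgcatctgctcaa
Col18a1: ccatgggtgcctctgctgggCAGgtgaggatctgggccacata

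The second set holds donors moved into the exon. The capitals mark the bases lost by the unlisted form: 30 in Hnf4a, 4 in Mup3 and 5 in Cyp2a22.
Hnf4a: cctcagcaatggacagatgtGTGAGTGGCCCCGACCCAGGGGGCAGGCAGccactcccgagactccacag
Mup3: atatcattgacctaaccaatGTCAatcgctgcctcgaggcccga
Cyp2a22: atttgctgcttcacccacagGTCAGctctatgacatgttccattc

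In the third set the capitals mark a whole exon. Insr and Sec31a take in an exon that the feature tables lack, and Ptprd, Itih4 and Clock skip an exon that they list.
Insr: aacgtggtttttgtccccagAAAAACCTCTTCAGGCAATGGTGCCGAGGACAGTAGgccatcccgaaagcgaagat
Sec31a: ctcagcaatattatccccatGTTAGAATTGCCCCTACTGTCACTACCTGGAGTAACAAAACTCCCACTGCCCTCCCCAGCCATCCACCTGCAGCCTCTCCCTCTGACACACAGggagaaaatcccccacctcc
Ptprd: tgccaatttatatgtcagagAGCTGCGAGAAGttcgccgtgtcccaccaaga
Itih4: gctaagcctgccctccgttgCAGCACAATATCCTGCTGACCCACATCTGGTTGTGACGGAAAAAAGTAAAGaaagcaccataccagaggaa
Clock: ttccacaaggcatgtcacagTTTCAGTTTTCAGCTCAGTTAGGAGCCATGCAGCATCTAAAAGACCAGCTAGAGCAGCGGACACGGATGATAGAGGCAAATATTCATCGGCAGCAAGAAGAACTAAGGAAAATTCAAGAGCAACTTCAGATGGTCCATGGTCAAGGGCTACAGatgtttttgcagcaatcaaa

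The members were weaker than annotated junctions but had similar intron lengths. Their mean over the libraries ran from 5.0 to 609.75 reads with a median of 15.25, against 29.75 for annotated junctions at the same minimum. Of the 1255, 64 had a mean of at least 100 reads and 771 a mean under 20. Their introns had a median of 1204 bases (27 to 374647), against 1127 for annotated ones. Among the extremes, 4 introns under 50 bases lay in Ahsg, Alb, Apoa1 and the mitochondrial genome, while the shortest annotated intron read was 56 bases. The one in Ahsg, of 47 bases, lay inside 1 exon. Whether these 4 gaps arose by splicing was not tested. The 7 over 100000 bases lay in Ugt1a6b, Ghr and the multi-copy Serpina1b and Mup loci.

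In time order the libraries held 11810932, 14422433, 13945377 and 14943920 junction reads. Members held 34231, 38466, 35596 and 42192 of them in that order, or 0.290% (Clopper-Pearson 95% interval 0.287 to 0.293%), 0.267% (0.264 to 0.269%), 0.255% (0.253 to 0.258%) and 0.282% (0.280 to 0.285%). The share was highest at CT22 and lowest at CT34. Reads in introns free of annotated exons followed the same order at the top and bottom, with 16.9, 13.1, 11.1 and 12.1 per 100 gene reads in time order, and their part in the result was not tested. The 7 hepatocyte markers examined were measured in all libraries, with RPKM-like values of 316 to 39890. Of the 4 pancreas markers Prss2 and Cpa1 were at 0 in all libraries, and the list's summed value ran 8.07, 9.46, 6.48 and 11.8 in time order. Of the 4 muscle or gut markers Myh4 was at 0, and the sum ran 26.5, 16.0, 17.3 and 16.6. The 4 endothelial markers summed to 13.8, 18.1, 39.9 and 34.3 and the 2 erythroid markers measured to 341, 260, 580 and 140. The part of these in the results below was not tested.

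By type, the members fell into 7 classes. Skips numbered 153, unlisted pairings of 2 annotated sites 29, unlisted sites inside an exon 276, unlisted internal exons 139, unlisted sites in an intron with no partner junction 268, junctions whose far end lay outside every transcript of the strand 46, and junctions with neither end annotated 344. The last class held the most member reads, 28.5%, followed by sites inside an exon and then by intron sites with 18.3%. Within each type the share of member reads differed by under 4 percentage points between libraries. Unlisted pairings moved most in proportion, from 1.73% of member reads at CT22 to 3.73% at CT40, with 2.78 and 3.51% between. That rise is mostly 1 junction, Serpina1c to Serpina1e, described below.

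A later annotation holds a part of them. An M21 intron of the same length, with at least 1 neighbouring intron at the same offset, was found for 418 of the 1255 members (33.3%) and for 70247 of the 70509 annotated junctions (99.6%). The match was sought over the whole chromosome, so the 418 can include false matches. BC024386 members of 134 and 137 bases, for example, matched introns of Epn1, another gene elsewhere on the chromosome, with 1 neighbour each. The matched share was 53.1% (34 of 64) for members with a mean of at least 100 reads and 28.5% (220) for those with a mean under 20. Of the 418, 262 belonged to at least 1 protein-coding transcript. Of the rest, 38 belonged to a transcript marked for nonsense-mediated decay, 45 to retained-intron or processed transcripts and 73 to long noncoding or other transcripts. Counted whatever else they belonged to, 63 of the 418 were in a transcript marked for decay. By type the matched share ran from 27.6% for pairings to 40.1% for junctions with neither end annotated. Members without a match are not thereby shown to be alignment errors, nor are matched ones shown to be used in protein.

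**Figure D1:**
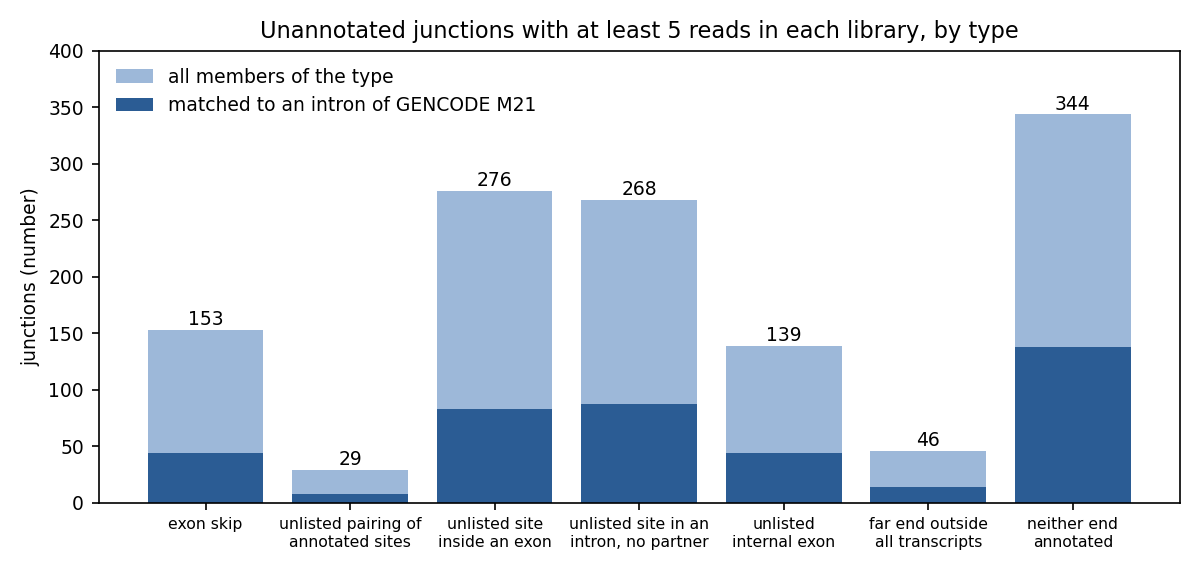
Number of members of each type (light bars, number of junctions) and of those matched to a GENCODE M21 intron (dark part). Junctions with neither end annotated are the largest class, with 344 members, and unlisted sites inside an exon the next, with 276.

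Exon skips came first among single junctions. Of the 153, 136 skipped 1 exon and 17 skipped more, up to 10. The skipped single exons had a median of 108 bases, and 78 of the 136 (57.4%) had a length that is a multiple of 3, against 39.8% of the 190153 annotated internal exons. Their median share of the reads at the site was 3.58% over the 117 skips at sites with 50 reads in each library. The share is the member's reads over all listed junction reads at its annotated end, taking the end with more reads where both are annotated.

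The strongest member of all was a skip of a 51-base exon of Itih4, a plasma protein of the inter-alpha-trypsin inhibitor family (mm9 chr14:31709957-31711042). It had 283, 709, 797 and 650 reads in time order. CT22 was low, and the scaled reads, divided by each library's total over annotated junctions, spanned 2.38-fold (exact 95% interval 2.08 to 2.74). Its share of the site was 5.53, 6.85, 7.62 and 5.86%, and the exact intervals at CT22 (4.92 to 6.20%) and CT34 (7.12 to 8.15%) do not overlap. Apoc3, which encodes an apolipoprotein that restrains triglyceride clearance, had 632, 418, 400 and 305 reads over a skipped 68-base exon, highest at CT22 and lowest at CT40. Its share was 3.09, 3.89, 4.06 and 2.29%.

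Skips with a larger share were found in Proc, Cyp2d10, Slco1b2 and H2-Q7. Proc encodes the anticoagulant protein C, and the skip of a 64-base exon had 160, 135, 153 and 187 reads, or 30.7, 23.1, 25.1 and 26.1% of its site. Cyp2d10, a cytochrome P450, skipped a 177-base exon in 198, 280, 274 and 249 reads, with shares of 21.7, 24.3, 23.4 and 17.3%. Slco1b2, the liver uptake transporter for organic anions, skipped an 84-base exon with nearly constant reads of 37, 39, 40 and 38, while its share went from 49.3% at CT22 and 41.1 and 41.7% at CT28 and CT34 to 25.7% at CT40. A second member skipped the same exon from the same site to an acceptor 5 bases further on, with 24, 30, 33 and 52 reads and shares of 32.0, 31.6, 34.4 and 35.1%. The site as a whole had 75 reads at CT22 and 148 at CT40. H2-Q7, a nonclassical MHC gene of a family of near copies, skipped 2 exons (402 bases) in 60, 55, 27 and 89 reads, with shares of 57.1, 32.7, 27.6 and 49.4%. Its transcript value rose 2.12-fold when multi-mapped reads were counted, so its copies may not be separable.

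In Ptprd, a receptor-type tyrosine phosphatase, the member left out a 12-base exon that the feature tables list, a microexon. Its reads were 20, 52, 68 and 108, lowest at CT22 and highest at CT40, a range of 4.27-fold (2.63 to 7.26). It held 90.9, 86.7, 97.1 and 95.6% of the reads at its site, and the strongest annotated junction there had 1 or 2 reads in each library. The annotated form was thus the minor one in all 4 libraries.

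Of the junctions read in the core clock list of 13 genes, 0.862% were members, against 1.75% over all genes. The list held 1 member, in Clock itself. It joined exon 18 to exon 20 across the 153-base exon printed above (mm9 chr5:76659385-76664790) and had 28, 31, 44 and 48 reads, or 100, 86.1, 100 and 92.3% of its site. This is the exon missing from the Clock-delta-19 protein, and every group carries the allele. Per scaled read the range was 1.49-fold (0.932 to 2.43), so no difference between times was seen beyond counting error.

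Sites moved by a few bases formed the sharpest pattern. Counted per member, so that a site shared by several junctions counts for each, 186 unlisted sites lay within 30 bases of an annotated site. They were 125 acceptors and 61 donors, and 103 of the 186 (55.4%) lay at a multiple of 3. Most of these 103 were shifts of exactly 3 bases, counted next, so the 55.4% does not describe the other distances. Acceptors exactly 3 bases away numbered 54, of which 40 made the exon shorter and 14 longer, while 13 acceptors lay 4 bases away. Donors had no such peak, with 4 at 3 bases and 8 at 4 bases. Tandem acceptors 3 bases apart are known as NAGNAG sites, after the repeated acceptor bases.

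**Figure D2:**
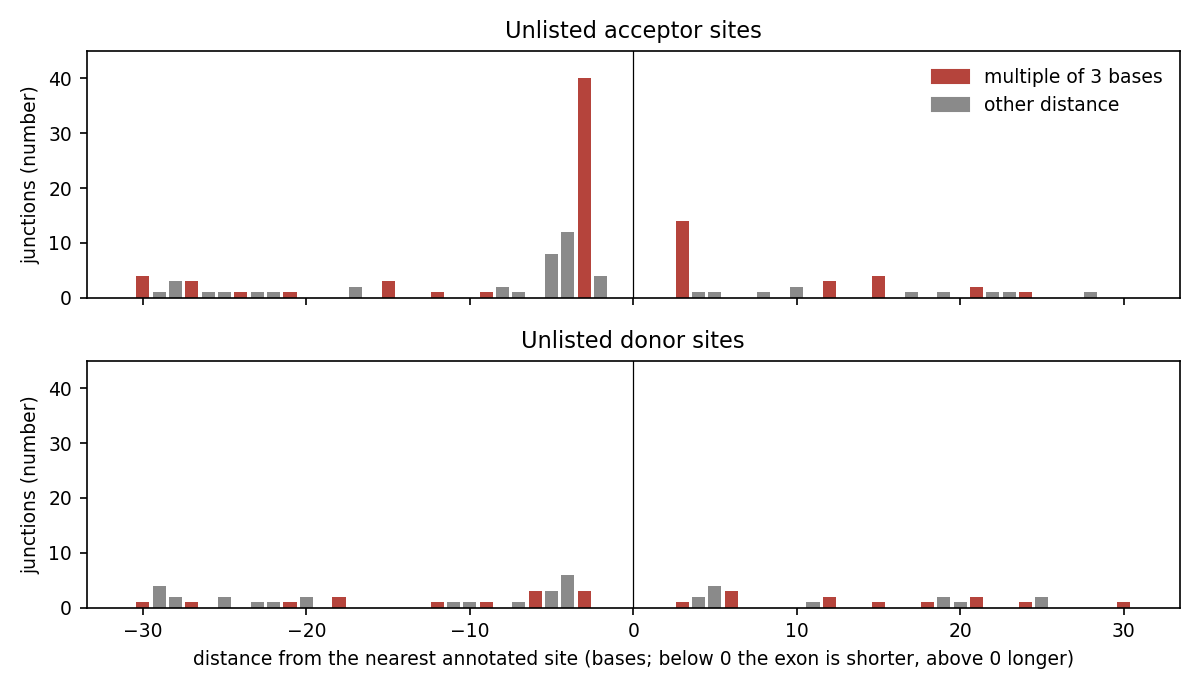
Unlisted acceptors (top) and donors (bottom) within 30 bases of the nearest annotated site, number of junctions against distance in bases, with multiples of 3 in red. The acceptor bar at 3 bases towards a shorter exon holds 40 members and that towards a longer exon 14.

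Sequence could be read for 44 of the 3-base acceptor shifts, and in all 44 the 3 bases end in AG. In a shorter exon these bases end at the member's own acceptor, and in a longer exon at the annotated acceptor. AG at their end is thus largely given in advance, and the shares over all introns below are no measure of enrichment. They were CAG in 27, AAG in 8, TAG in 5 and GAG in 4. Over 284201 M21 introns the first 3 exon bases end in AG in 5.55% and are CAG in 0.918%. Of the 4-base acceptor shifts read, 12 of 12 end in AG, against 5.83% of introns. Over all acceptors moved into an exon by up to 300 bases, 151 of 152 lost stretches end in AG. For donors moved into an exon, the lost stretch starts with GT in 60 of 67 and with GC in the other 7. What makes a junction high quality in these files is not given in the sources used here, and it may itself use these bases, so the match is a description of the listed junctions.

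The most used tandem acceptor was in Rarres2, which encodes the adipokine and chemoattractant chemerin (mm9 chr6:48520062-48520242). Its reads were 655, 432, 311 and 315 in time order, a scaled range of 2.63-fold (2.30 to 3.02). Its share was 38.8, 35.4, 37.0 and 35.0%, so the member and its annotated neighbour fell side by side. Tle5, a Groucho-family corepressor, had 154, 166, 155 and 245 reads and shares of 7.91, 6.36, 5.98 and 7.72%. Mlxipl encodes ChREBP, the carbohydrate-responsive transcription factor, and its member had 94, 200, 124 and 136 reads. The reads peaked at CT28, while the share stayed at 17.2, 16.7, 16.5 and 15.7%. Pcbp2, a poly(C)-binding protein, had 105, 108, 96 and 121 reads and shares of 22.8, 19.01, 19.8 and 22.9%. Col18a1, the collagen from which endostatin is cut, had 122, 116, 152 and 145 reads and shares of 27.5, 24.6, 24.6 and 24.5%. In these 5 genes the share differed by at most 4 points between any libraries; Tle5, Mlxipl, Pcbp2 and Col18a1 were chosen for their sequences after the values were seen.

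Among donors, the leading member was in Hnf4a, the hepatocyte nuclear receptor (mm9 chr2:163394746-163395684). The site 30 bases inside the exon had 284, 399, 382 and 415 reads and held 68.4, 64.6, 58.5 and 60.1% of its site, more than the annotated donor in every library. Hnf4a forms with and without a short in-frame insert are textbook isoforms. The share was highest at CT22, and its exact intervals are drawn in the plot of shares by time. Mup3, a major urinary protein, had a donor 4 bases inside the exon with 351, 173, 126 and 213 reads, highest at CT22 (3.29-fold, 2.68 to 4.07), yet its share was 1.78, 1.71, 1.82 and 2.02%. Cyp2a22 had a donor 5 bases inside the exon with 74, 106, 38 and 27 reads and shares of 43.8, 35.6, 23.2 and 30.7%. Tmem205, a transmembrane protein, had one 5 bases into the intron with 338, 328, 292 and 245 reads and shares of 18.6, 24.0, 21.95 and 19.5%. The Cyp2a22 share spanned 20.6 points, at a site with 88 to 298 reads. That of Tmem205 ran from 18.6% at CT22 to 24.0% at CT28. The Mup3 share, at 1.71 to 2.02%, left little room for a range in points. Apoa2, an apolipoprotein of HDL, had an acceptor 65 bases inside an exon with 392, 379, 325 and 435 reads, which was only 0.456 to 0.773% of its site.

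Unlisted sites in introns included some that outweighed the annotated one. Gstz1, which acts in tyrosine breakdown, had a donor with 435, 303, 326 and 438 reads and 70.6, 73.0, 75.8 and 76.2% of its site, and M21 lists it. Gm8883, a long noncoding gene, had an acceptor with 160, 189, 187 and 161 reads and 93.6 to 95.4% of its site. Nrp1, a coreceptor for VEGF and semaphorins, had an acceptor with 124, 83, 46 and 44 reads, highest at CT22, and shares of 86.1, 67.5, 48.9 and 55.7%. Xylb, the kinase of xylulose, had 33, 10, 8 and 6 reads and shares of 41.8, 10.3, 7.27 and 6.19%. In both genes CT22 stood above the later libraries, as the intron reads did, whose part was not tested. Raph1, an adhesion and actin regulator, went the other way: 27, 59, 58 and 69 reads, with shares of 28.7, 46.1, 53.2 and 62.2%. Its lowest share was at CT22. The sites of these 3 genes carried 79 to 144 reads, which leaves the wide intervals drawn in the plot of shares.

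**Figure D3:**
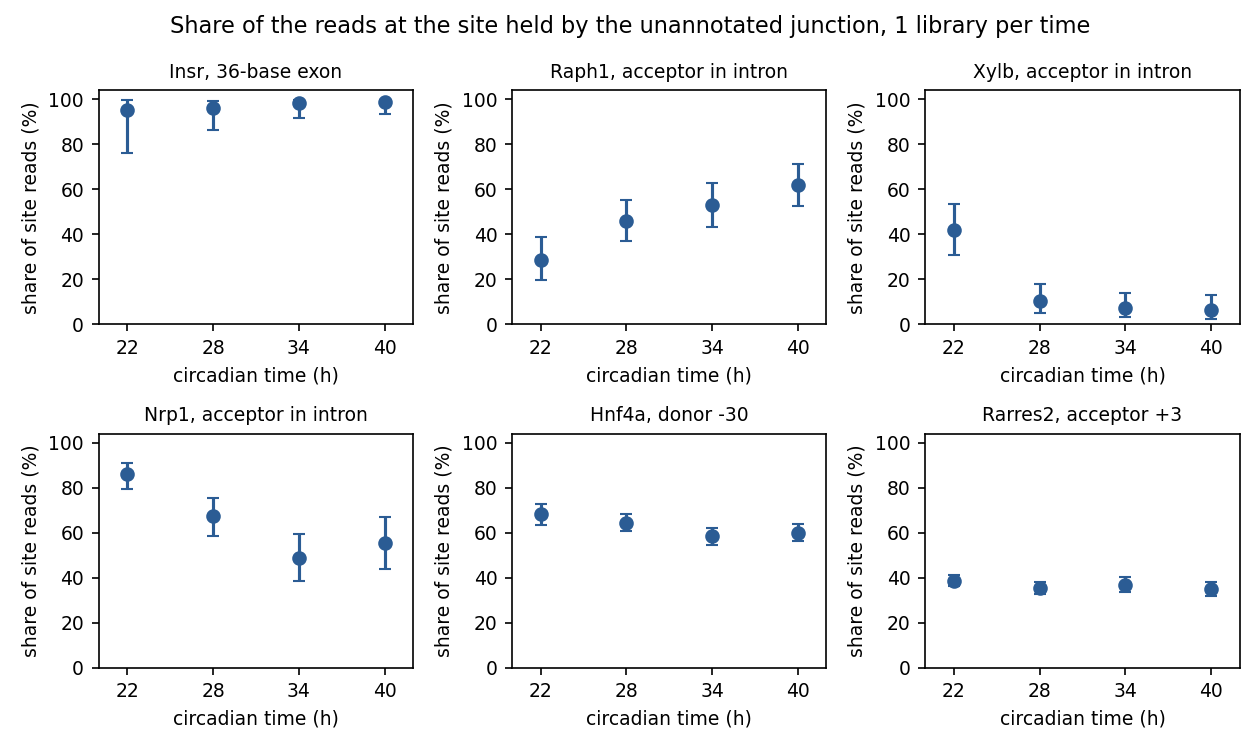
Share of site reads (%) held by 6 members against circadian time (h), 1 library per point, with exact 95% Clopper-Pearson intervals that cover counting error only. Raph1 was lowest at CT22 (28.7%), Xylb and Nrp1 highest there (41.8 and 86.1%), and Rarres2 stayed between 35.0 and 38.8%.

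Unlisted internal exons were closed by 2 junctions in the same gene. The 139 members of this type defined 104 exons of at most 300 bases in 92 genes, with a median length of 97.5 bases (22 to 260), and for 35 exons both flanking junctions were members. Of the 104, 45 (43.3%) had a length that is a multiple of 3, against 39.8% of the same wide set of annotated internal exons. Their median share was 2.62% over 114 members.

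Insr, the insulin receptor, gained a 36-base exon (mm9 chr8:3181702-3181737). Its junctions had 20, 49, 66 and 82 reads on one side and 9, 21, 28 and 37 on the other. They were lowest at CT22 and highest at CT40 on both sides, a range of 3.24-fold (1.97 to 5.58) and 3.25-fold (1.54 to 7.65). The annotated junction that leaves the exon out had 1, 2, 1 and 1 reads, so the exon was included in 95.2, 96.1, 98.5 and 98.8% of reads at the first site. The form with this exon is the B form of the receptor, known as the main one in liver, and M21 lists it. Sec31a, a COPII coat protein of transport out of the endoplasmic reticulum, gained a 93-base exon with 43, 69, 66 and 88 reads at its acceptor and 36, 49, 51 and 66 at its donor. Its acceptor share ran 6.90, 8.14, 8.98 and 12.8%. Insr and Sec31a were chosen after their values were seen.

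Cyp3a25, a cytochrome P450 of drug and steroid metabolism, had the 2 leading unlisted exons without an M21 match. The 152-base exon had 184, 160, 213 and 359 reads on its donor side and 244, 108, 145 and 342 on its acceptor side, with shares of 20.2, 14.3, 24.9 and 35.9% and 22.5, 9.63, 17.1 and 32.1%. The 215-base exon had 284, 130, 113 and 231 reads and shares of 23.5, 9.89, 11.8 and 20.4%. All 3 junctions were lower at CT28 than at CT22 and CT40. Neither length is a multiple of 3. Sema4g, a semaphorin, had a 186-base exon with 168, 219, 137 and 320 reads, and Apoe a 70-base exon with 106, 112, 146 and 120 reads that made up under 0.1% of its site.

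Splicing regulators hosted 5 members in 4 of the 37 SR and hnRNP genes with annotated junctions. That is 1.52% of the junctions read there, near the 1.75% over all genes. All 5 matched M21, with nonsense-mediated decay among the types of each named below. Hnrnpl had both junctions of a 70-base exon, with 11, 15, 12 and 13 reads and 26, 17, 12 and 16. The share of the second was 27.1, 13.7, 8.33 and 10.7%, highest at CT22. That of the first was 13.6, 12.4, 8.33 and 8.90%. Its exact intervals at CT22 (6.98 to 23.0%) and CT34 (4.38 to 14.1%) overlap. Snrnp70, a protein of the U1 particle, had an 80-base exon with 72, 55, 71 and 68 reads and shares of 33.8, 13.4, 21.3 and 19.2%, also highest at CT22. Hnrnpa2b1 had an intron site with 9, 13, 9 and 17 reads.

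Plasma protein genes hosted 131 members in 52 of 68 genes, 16.3% of all junctions read there, against 1.75% over all genes. Cytochrome P450 genes hosted 57 members in 25 of 65, or 10.4%. Major urinary proteins hosted 13 in 11 genes (16.9%) and conjugation enzymes 14 in 8 (5.22%). Solute carriers hosted 26 in 17 of 187 (1.92%, near the share over all genes), and the long noncoding list 1, in Malat1 (2.78%). A host's read depth moved with these counts. Among genes whose strongest annotated junction had a mean of 5 to 50 reads, 69 of 4354 (1.58%) hosted a member, against 298 of 4119 (7.23%) at 50 to 500 reads, 192 of 682 (28.2%) at 500 to 5000 and 67 of 96 (69.8%) above. The plasma protein members held a median of 0.302% of sites with a median of 9698 reads, against a median of 3.83% for all 680 members at sites of at least 50 reads. Such genes reached the 5-read minimum with small shares. In all, 1047 members had a named host, in 637 genes, of which 437 hosted 1 member and 89 at least 3.

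**Figure D4:**
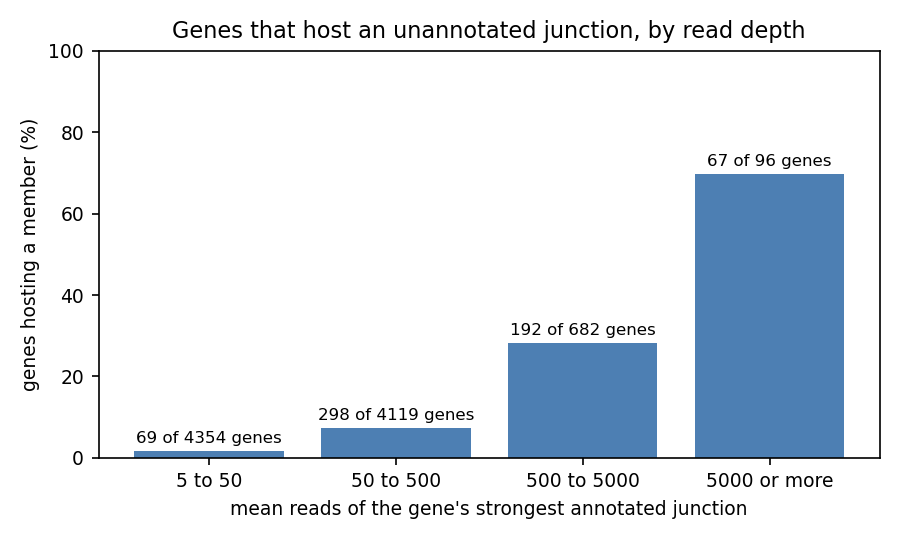
Share of genes hosting at least 1 member (%) against the mean reads of the gene's strongest annotated junction. It goes from 1.58% of genes at 5 to 50 reads to 69.8% at 5000 or more.

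Members within multi-copy families joined neighbouring genes. The junction from Serpina1c to Serpina1e (mm9 chr12:105134366-105187256), alpha-1-antitrypsin genes with near-identical sequence, had 138, 396, 673 and 829 reads, a range of 4.75-fold (3.96 to 5.73), but only 0.168, 0.506, 1.01 and 0.901% of its site. The Serpina1c value rose 6.01-fold when multi-mapped reads were counted, so reads of these copies may be placed on one or the other. A junction of 83143 bases from Mup6 had 198, 90, 112 and 144 reads and 96.6, 98.9, 99.1 and 98.6% of its site, in a host that gained 3.63-fold. Hosts that gained over 1.5-fold in this way held 94 of the 1255 members (7.49%).

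The 344 junctions with neither end annotated were partly whole genes absent from the tables. Of these, 167 lay outside all transcripts, 86 within a transcript with no end in an exon, 53 had an end in an exon and 38 lay inside 1 exon. The 167 formed 92 loci, 14 of them with at least 3 members and 63 with 1, and 88 of the 167 (52.7%) matched M21. The strongest locus by members (mm9 chr5:90990344-91026509) held 12 junctions, all matched to the protein-coding 5830473C10Rik, with 657, 702, 488 and 845 reads in sum. Gm4756 had 9 members with 399, 666, 561 and 842 reads, 8 of them matched. The pseudogene pair Cyp2d37-ps and Cyp2d38-ps had 9 with 186, 244, 248 and 257. The noncoding Gm27216 had 5 with 531, 552, 309 and 431, lowest at CT34. The loci thus differed in their order over the times, and no time was highest in all of them.

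**Figure D5:**
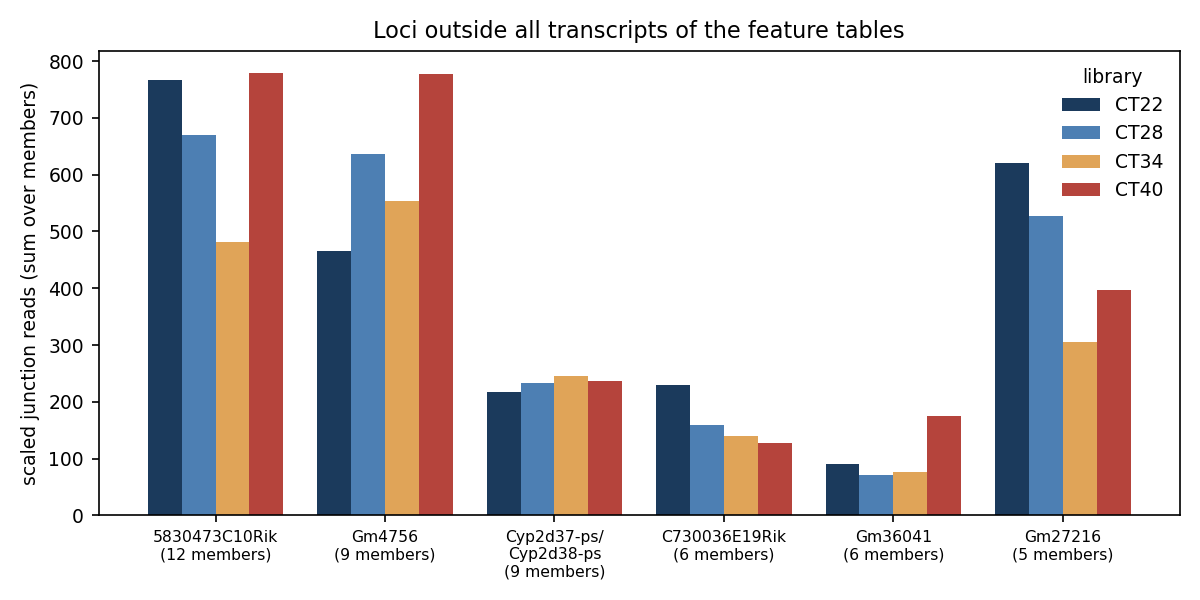
Scaled junction reads summed over members (each library's reads divided by its relative total of annotated junction reads) for the 6 loci with most members outside all transcripts, 1 bar per library. 5830473C10Rik and Gm27216 were lowest at CT34, and Gm4756 was highest at CT40.

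The strongest junctions of this class were at Mat1a, the liver enzyme that makes S-adenosylmethionine. One (mm9 chr14:41918550-41918635) had 420, 554, 635 and 678 reads and a second from the same start, 251 bases long, had 150, 395, 288 and 333. Both matched M21 Mat1a. The first stayed within 1.28-fold after scaling (1.13 to 1.45), and the second was lowest at CT22 (2.15-fold, 1.78 to 2.62). Scd1, the fatty acid desaturase, had a junction with 17, 56, 59 and 100 reads, lowest at CT22 and highest at CT40 (4.65-fold, 2.76 to 8.29). Acnat2, a peroxisomal acyltransferase, had 29, 94, 64 and 20, highest at CT28 (4.87-fold, 2.98 to 8.33), and no M21 match. The Acnat2 transcript value itself ran 34.2, 49.0, 58.5 and 20.9 in time order. It rose 1.83-fold when multi-mapped reads were counted, so its copies may not be separable.

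The bounds of Mgam, an intestinal maltase-glucoamylase, held 20 members, more than any other gene, and none matched M21. Of the 20, 17 had neither end annotated and 3 used an intron site. Their summed reads were 232, 525, 733 and 1209, highest at CT40 and lowest at CT22. The bounds of Zfp553 held 18, all with neither end annotated and all matched to M21 introns of Srcap, Fbrs or Gm42715, with 542, 986, 918 and 1172 reads. Srcap encodes a chromatin remodeller, so the named host is here only the transcript that spans them. BC024386 and Cfhr2 were the named hosts of 11 each and Ahsg, the fetuin gene, of 9. Of the Cfhr2 members, 8 had neither end annotated, and 3 matched M21, in Cfhr2 and the pseudogenes Gm16332 and Gm5834. The Cfhr2 value rose 2.94-fold when multi-mapped reads were counted.

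Over the 4 times, 243 of the 484 members with a mean of at least 20 reads had a 2-fold range of scaled reads between the highest and lowest library, 50.2% against 36.7% of 45911 annotated junctions. Within a mean of 20 to 100 reads the shares were 51.7% of 420 and 40.3% of 32550, and from 100 reads on 40.6% of 64 and 28% of 13361. With the exact interval of the ratio required to lie above 2, the counts were 68 of 484 (14%) and 4151 of 45911 (9.04%). Each ratio was taken between its extreme libraries, so the level of that interval is nominal. The median range was 2.00-fold for members and 1.78-fold for annotated junctions. CT22 carried much of it: without that library 120 of the 484 members and 12.7% of annotated junctions kept a 2-fold range. Of the 243, in time order, 90, 37, 29 and 87 had their highest value in the library and 92, 41, 52 and 58 their lowest. Junctions of the same locus count separately here. In the bounds of Mgam and of Zfp553, for example, the summed reads of many members were lowest at CT22 and highest at CT40. Annotated junctions with a 2-fold range were highest at CT22 in 4265 cases and lowest there in 9587 of 16854. By type the share with a 2-fold range lay between 44.7% for unlisted exons and 57.1% for far ends outside transcripts, of 47 and 21 members.

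The widest range among members with a mean of at least 50 reads was at Serpina4-ps1, a serpin pseudogene. An acceptor 84 bases inside an exon had 198, 57, 7 and 76 reads, 33.4-fold between CT22 and CT34 (15.9 to 84.2). A second junction of the gene had 109, 80, 13 and 80 reads, 9.91-fold (5.56 to 19.2). Both were lowest at CT34. No annotated junction was read at either site, so the share, 99.1 to 100%, had no room to move.

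Use within the site was compared by share. Of 680 members at sites with at least 50 reads in each library, 70 (10.3%) had a share range of 10 points or more, against 275 of 891 (30.9%) annotated junctions with a mean share under 50%. The members' shares were lower to begin with: the median was 3.83% against 15.3%, 384 of the 680 were under 5%, 182 under 1% and 19 over 50%. A low share cannot move by 10 points, so these counts are no measure of how tightly either set was held.

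Wide share ranges at the remaining sites named by the rule were spread over functions. Ifi30, a lysosomal thiol reductase, had a donor with 79, 29, 38 and 62 reads and shares of 80.6, 56.9, 63.3 and 70.5%. Rcl1 had a donor with 72, 25, 33 and 64 reads and shares of 56.2, 38.5, 32.7 and 48.1%. In both, CT22 and CT40 were the higher libraries and CT28 and CT34 the lower. Mia2, a protein of the endoplasmic reticulum exit sites, had 47, 45, 22 and 65 reads and was lowest in share at CT34, at 25.9%. The antisense gene 0610031O16Rik had 5, 25, 28 and 12 reads, with its shares of 23.1 and 30.1% at CT28 and CT34 above those of 5.32 and 10.3% at CT22 and CT40. Gm20319 had 33, 50, 48 and 84 reads and shares of 61.1, 84.7, 81.4 and 91.3%, lowest at CT22.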

How the data were processed

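The authors deposited, per library, a list of splice junctions with a count of reads each and a table of feature values for transcripts, exons and introns. The counts were used as deposited. No unit is stated for the feature values the authors deposited. They behave like RPKM, which is inferred, with the upper value read as including multi-mapped reads. The aligner RUM is named per the file headers and the build mm9 per the submitters' processing notes. How the files define a high-quality junction is not given in the sources used, and the strand column reads + throughout, so strand was taken from the annotated site.

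Flanks of 50 bases were removed, and introns were compared with those of the 115699 transcripts in the feature tables. Members, types and ranges followed rules stated in the report. The members, host lists and tests were chosen with earlier results of these data known. Named were the 15 members with most reads, the 5 leading per type, the 10 with the widest share and the 10 with the widest fold range, core clock hosts, the 5 genes hosting most members and up to 4 per host list. Added after values were seen were Insr, Mlxipl, Pcbp2, Col18a1, Tle5 and Sec31a. Scaling used total annotated junction reads. M21 matches needed 1 further intron at the same offset among the 20 nearest, with no conversion of coordinates. Type calls were tested on junctions simulated from the same annotation, for all types except pairings and far ends outside transcripts. Python 3.11.15, pandas 2.3.3, scipy 1.17.1, R 4.3.3 and edgeR 4.0.16 (TMM only) were used.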

Additional observations from a re-analysis of the deposited data

How the results depend on the processing

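The number of members moved from 1255 to 2125 with a minimum of 3 reads and to 613 with 10. It was 1257 with an exact match or by the files' own colour and 1146 with 5 bases allowed. Of the types, unlisted pairings fell to 19 without hosts that gain over 1.5-fold from multi-mapped reads, an alternative chosen after seeing the data, as was the interval rule below. Under each alternative tried, the other types stayed within 1.5 times. The count with a 2-fold range was 656 with no minimum mean (52.3% of members, 41.9% of annotated junctions), 73 with a mean of at least 50 (44.0% and 30.4%), 68 where the exact interval lay above 2, 257 unscaled and 251 with TMM. Leaving out each library gave 120 (without CT22) to 209 (without CT34). In each of these settings, the interval rule included, the members' percentage was above that of annotated junctions. All of them re-cut the counts that the 5-read minimum selected, so they are no independent check of the difference. The count with a 10-point share range was 149 with 20 reads at the site, 26 with 100, 68 against the strongest annotated junction alone, and 49 to 55 with each library left out. Splitting unique from multi-mapped junction reads was not run, since the files give 1 count per junction. No paired analysis was possible because each time has 1 library. Depth limits what can be said of weak members: 771 had a mean under 20 reads and were not counted in the 2-fold range.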

Other observations

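The colours in the junction files separated known from unannotated junctions, and a lighter shade of green marked some members. Among donors moved into an exon, the shade was the lighter one for 7 of 7 that begin with GC and for 1 of 60 that begin with GT. The meaning of the shades is not given in the sources used here. Of all members, 44 had the lighter shade in the first library.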
